A study of Bos taurus with 11 samples.

Results

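Keratins were followed in the uterine endometrium of 11 dairy cows, through 7 of the 9155 genes that had a named probe set on the array. KRT7, KRT8, KRT18 and KRT19 are keratins of simple epithelia, and KRT5, KRT14 and KRT17 are keratins of basal and stratified epithelia. Members were chosen by gene symbol, and each gene was read from the probe set that was brightest on average. All 7 genes were on the array, but KRT8, KRT14 and KRT17 gave dim signals on average.

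All animals were Holstein-Friesian and multiparous, their parity averaging 4.7, and the endometrium was taken after slaughter at 14 ± 0.4 days from calving. The severe negative energy balance group (n = 6) received, per day, silage limited to 25 kg plus 4 kg of concentrate, with 3 milkings, from day 2 after calving. The mild group (n = 5) had silage without limit plus 8 kg of concentrate, with 1 milking, also from day 2. In both groups the concentrate held 21% crude protein. Cows had been blocked 2 weeks before calving, and their previous yield averaged 6477 ± 354 kg. Feed and milking differed together, so their parts cannot be told apart. Each sample was whole tissue on 1 Affymetrix bovine array, and fewer epithelial cells cannot be told apart from less keratin RNA per cell.

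Keratins are the intermediate filament proteins of epithelial cells. Each filament is built from pairs of a type II and a type I chain: KRT8 with KRT18 in simple epithelia, KRT5 with KRT14 in basal cells of stratified epithelia, while KRT7 and KRT19 are common in glandular and ductal linings. Desmosomes tie these filaments together between neighbouring cells, and hemidesmosomes tie them to the basement membrane. The lining and the glands of the endometrium are a simple epithelium, whose cells are known to carry KRT7, KRT8, KRT18 and KRT19. In the RefSeq table of the bovine assembly ARS-UCD2.0, KRT18, although a type I chain, neighbours KRT8 among the type II genes, and KRT19, KRT14 and KRT17 lie on 1 other chromosome.

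Signals are log2 values, and dim here means below 5.52, a limit under which 40% of probe sets lie. The median signal was 6.20 on every array, and pairs of arrays correlated at 0.948 to 0.991. RNA integrity, taken as the 3' minus 5' signal averaged over 6 control transcripts, was 0.59 ± 0.14 in severe cows (SD, n = 6) and 0.56 ± 0.07 in mild cows (SD, n = 5), with an exact two-sided permutation p of 0.643. EPCAM, an adhesion protein that marks epithelium, was bright in both groups, with a mean of 10.33 over the severe and 10.34 over the mild cows. It does not stand for epithelial genes in general. Of 16 measured epithelial markers 4 were higher in severe cows and the rest lower, with a median log2 difference of -0.28.

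Among the keratins of simple epithelia, KRT18, KRT19 and KRT7 were bright in every cow, and the difference between the regimes was smaller than the spread between cows in each. KRT18, the type I chain of the simple epithelial pair, ran from 8.35 to 9.79 in severe cows, with a median of 8.99, against 8.81, 9.50, 8.70, 8.37 and 9.004 in mild cows. The highest and the lowest of all 11 signals belonged to severe cows, severe 4 and severe 5, and the groups overlapped over nearly the whole range. The mean was 8.99 ± 0.53 in the 6 severe and 8.88 ± 0.42 in the 5 mild cows (SD). The log2 difference was 0.11 ± 0.26 (SE), with a 95% interval from -0.46 to 0.69 and a limma adjusted p of 0.887. On the linear scale the interval runs from 0.727-fold to 1.61-fold, so differences of these sizes in either direction were not excluded.

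KRT19, a small type I chain of glands and ducts, ran from 7.83 to 9.67 in severe cows, with a median of 8.58, against 8.30, 9.36, 8.66, 8.40 and 8.93 in mild cows. Severe 4 and severe 6 lay above every mild cow and severe 3 and severe 5 below every one. The means were 8.69 ± 0.74 in the 6 severe and 8.73 ± 0.43 in the 5 mild cows (SD), which differed by -0.04 ± 0.33 (SE) on the log2 scale, with an adjusted p of 0.973 from limma.

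KRT7, a type II chain of glandular epithelia, ran from 7.25 to 8.64 in severe cows, with a median of 7.89, against 7.59, 8.42, 8.16, 7.83 and 7.81 in mild cows. Again severe 4 was highest and severe 5 lowest of all cows. The means were 7.86 ± 0.52 in the 6 severe and 7.96 ± 0.32 in the 5 mild cows (SD), which differed by -0.11 ± 0.24 (SE) on the log2 scale, with an adjusted p of 0.885 from limma. In each of these 3 genes the mild mean was exceeded by 3 of 6 severe cows.

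KRT8, the type II partner of KRT18, could not be read from its named probe set. Its signal was dim in 11 of 11 cows, between 4.15 and 4.54 in severe cows, with a median of 4.43, and at 4.34, 4.28, 4.28, 4.31 and 4.32 in mild cows. The log2 difference of 0.08 ± 0.08 (SE, limma adjusted p = 0.707) is therefore not read as one of KRT8 RNA. Another probe set carries the same design number but is not listed in the annotation, so no gene is named for it here. It was singled out after its values were seen. Its mean was higher than that of 98.5% of probe sets, and it ran from 11.05 to 11.82 in severe cows, with a median of 11.44, against 11.56, 10.99, 11.48, 10.97 and 10.97 in mild cows. The log2 difference was 0.23 ± 0.15 (SE, limma adjusted p = 0.546), and the groups overlapped.

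Of the keratins of stratified epithelia, KRT5 was the 1 member that was not dim on average, and its probe sets differed in sign. KRT5, the type II chain of basal cells, ran from 7.10 to 7.54 in severe cows, with a median of 7.31, against 7.06, 7.09, 7.17, 6.90 and 7.51 in mild cows. Mild 5 lay with the highest severe cows, and the mild mean was exceeded by 4 of 6 severe cows. The log2 difference was 0.14 ± 0.11 (SE), with a 95% interval from -0.11 to 0.39 and a limma adjusted p of 0.633. The other KRT5 probe set was dim in all 11 cows and had the opposite sign, at -0.28 ± 0.14 (SE, limma adjusted p = 0.434). Its 95% interval, from -0.59 to 0.03, included 0 as well, and its dim signal is not read as one of KRT5 RNA.

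KRT17, a type I chain that skin and other epithelia make under stress, was dim in 9 of 11 cows. It ran from 4.90 to 5.67 in severe cows, with a median of 5.06, against 5.15, 4.84, 4.64, 4.68 and 5.97 in mild cows. Severe 6 and mild 5 alone were above the dim limit, and the log2 difference was 0.09 ± 0.23 (SE, limma adjusted p = 0.899). KRT14, the type I partner of KRT5, was dim in every cow, between 3.55 and 4.13 in severe cows, with a median of 3.98, and at 4.09, 4.09, 3.97, 3.75 and 3.83 in mild cows. Its log2 difference of -0.02 ± 0.11 (SE, limma adjusted p = 0.953) lies close to the floor of the array and is not read as a difference of the transcript.

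**Figure D1:**
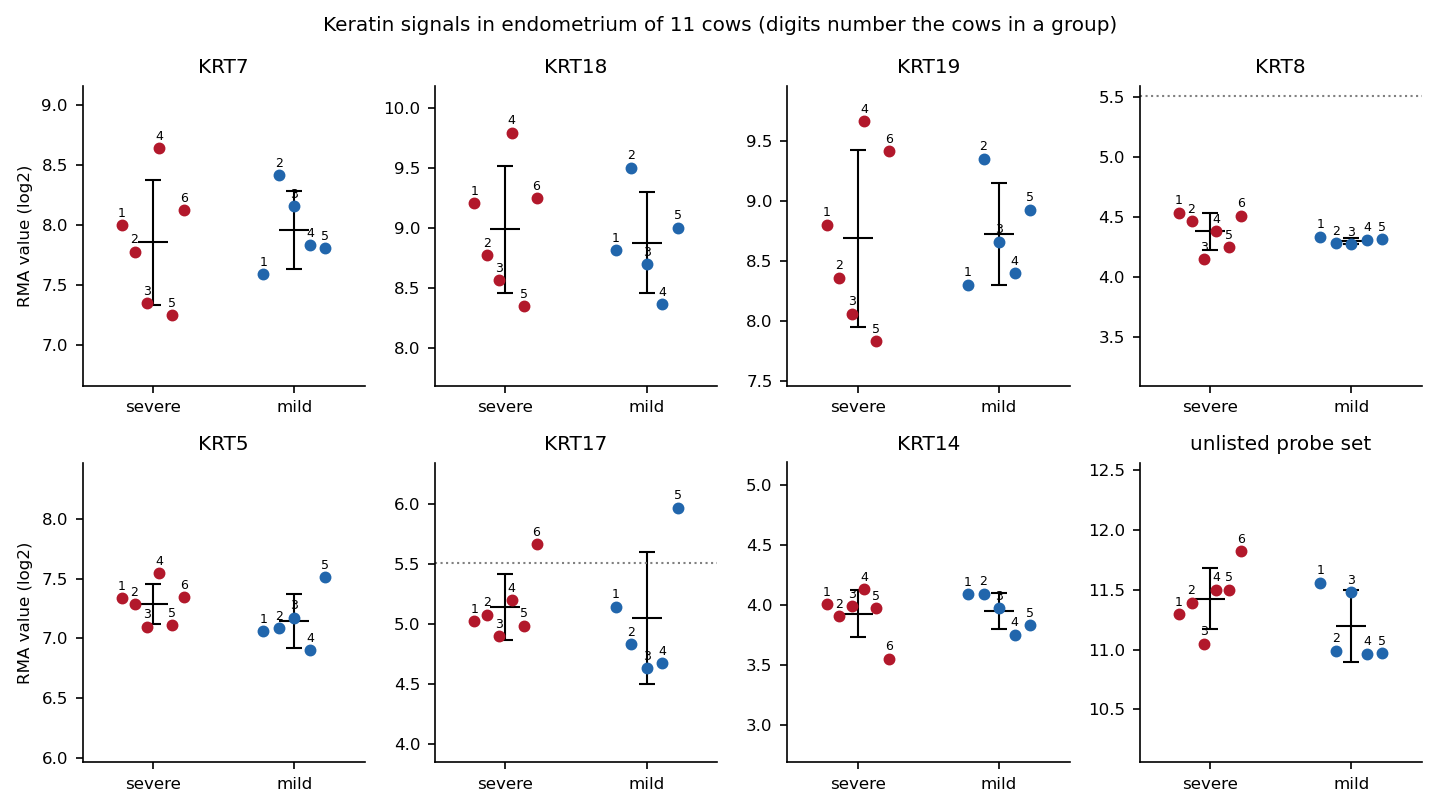
RMA log2 signal of the 7 keratins and of the unlisted probe set in each cow, severe on the left and mild on the right, on axes of equal height. Points are cows, bars the mean ± SD and dotted lines the dim limit of 5.52. The groups overlap in each panel, and severe 4 and severe 5 are the highest and lowest cows for KRT7, KRT18 and KRT19.

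Set side by side, simple and stratified keratins gave small differences of both signs. The median log2 difference was 0.02 over the 4 simple keratins, from -0.11 to 0.11, and 0.09 over the 3 stratified ones, from -0.02 to 0.14. It was -0.039 over the 3 simple keratins above the dim limit, so its sign rested on the dim KRT8 probe set. With each cow left out in turn the median ran from -0.14 (without severe 4) to 0.12 (without severe 5) over the simple and from -0.014 (without mild 3) to 0.23 (without mild 5) over the stratified keratins. Averaged over all probe sets of each gene, with the dim KRT5 probe set included, the stratified median was -0.021. The median over all 9155 genes was -0.004. Of the 7 members 0 passed limma at an adjusted p under 0.05, as did 0% of all 24016 probe sets tested. At an unadjusted p under 0.05 there were 0 of the 7. Of all genes, read from 1 probe set each, 15.9% were at that level, 8.45% higher and 7.46% lower in severe cows. Of all probe sets 12.8% were, 6.97% higher and 5.88% lower. Without mild 5, KRT5 reached an unadjusted p of 0.0404, with a log2 difference of 0.23 and a limma adjusted p of 0.298. The values of severe and mild cows were apart in 0 of the 7, beside 1.19% of all genes and 1.07% of all probe sets. Exact two-sided permutation tests over the 462 splits of the cows gave the members an unadjusted p between 0.262 for KRT5 and 0.913 for KRT19.

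The balance of type II over type I chains was compared as the log2 difference between partners within each cow. For KRT7 minus KRT19 it averaged -0.83 ± 0.28 in the 6 severe and -0.77 ± 0.26 in the 5 mild cows (SD), a shift of -0.07 with an exact two-sided permutation p of 0.686. The shift was -0.03 for KRT8 minus KRT18 (exact permutation p = 0.890) and 0.16 for KRT5 minus KRT14 (exact permutation p = 0.342), pairs in which 1 probe set was dim in all cows. Adjusted over the 3 pairs each p was 0.890. The level of one chain against the other cannot be read from different probe sets.

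**Figure D2:**
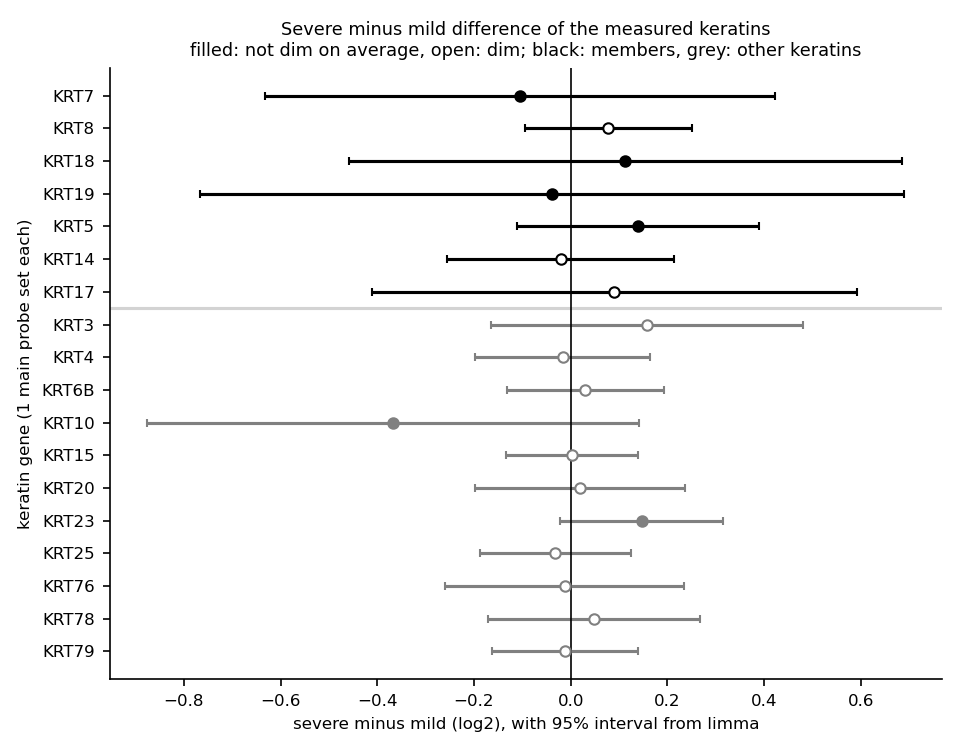
Severe minus mild log2 difference of the 7 members (black) and of the 11 other measured keratins (grey), with 95% intervals from limma. Open circles are genes dim on average. Every interval includes 0, and those of KRT19, KRT18 and KRT7 are the widest.

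The bright simple keratins varied widely from cow to cow, and their signals ran together. Within groups KRT19 had an SD of 0.62 log2 units, larger than that of 94.9% of the 9155 genes. The SD was 0.48 for KRT18 and 0.44 for KRT7, larger than that of 90.5% and 88.6% of genes. From the lowest to the highest severe cow KRT19 spanned 3.56-fold, KRT18 2.72-fold and KRT7 2.63-fold, while the mild cows spanned 2.07-fold, 2.20-fold and 1.77-fold. KRT5 spanned 1.36-fold over severe and 1.53-fold over mild cows.

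Of the 21 pairs that the 7 members form, 3 were correlated over the 11 cows at an adjusted permutation p under 0.05. They were the pairs of KRT7, KRT18 and KRT19. The share of pairs of other genes that correlate as closely was not computed, so this count is not read as particular to keratins. KRT18 and KRT19 had a Pearson r of 0.92 (permutation p = 7.00e-05, adjusted over 21 pairs 0.000735) and a Spearman rho of 0.87 (permutation p = 0.000820). Without mild 2 and severe 4, the cows farthest from the median of KRT18, r was 0.84. KRT7 and KRT19 had an r of 0.92 (permutation p = 5.00e-05, adjusted p = 0.000735) and a rho of 0.89 (permutation p = 0.000430), and r was 0.84 without severe 4 and severe 5. KRT7 and KRT18 had an r of 0.84 (permutation p = 0.00136, adjusted p = 0.00952) and a rho of 0.74 (permutation p = 0.0130, adjusted p = 0.0908). That pair rested more on the extreme cows: r was 0.67 without severe 4 and severe 5, and its adjusted permutation p was 0.0684 without severe 4 alone and 0.0834 without mild 2 and severe 5. With the group means removed, r was 0.93, 0.92 and 0.87 in the same order of pairs. All genes of a cow were read from 1 array and share its normalization, and genes of 1 cell type also share the amount of that cell type in the sample.

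Among the 6 severe cows KRT7, KRT18 and KRT19 put the animals in 1 and the same order, severe 4 highest, then severe 6, severe 1, severe 2 and severe 3, with severe 5 lowest. KRT5 followed almost the same order there: its r within severe cows was 0.99 with KRT7 (exact permutation p = 0.00417, adjusted over 21 pairs 0.0175) and 0.97 with KRT18 (exact permutation p = 0.00417, adjusted p = 0.0175). Over all 11 cows r was 0.44 for KRT5 with KRT7 (permutation p = 0.175) and 0.65 for KRT5 with KRT18 (permutation p = 0.0300, adjusted p = 0.126). Mild 2, second highest in KRT18, had one of the lower KRT5 signals, and mild 5 had the second highest KRT5. Without mild 2, r of KRT5 with KRT18 was 0.84 (adjusted permutation p = 0.0148). No correlation was computed over the 5 mild cows alone, and a difference between the regimes in this relation was not tested. KRT5 and KRT17 had an r of 0.71 (permutation p = 0.0130, adjusted p = 0.0680), or 0.79 without severe 4 (adjusted permutation p = 0.0332).

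The keratins were then set beside the level of other epithelial genes, taken as the mean of 16 measured markers without keratins, each centred over the cows. Of these markers 1 was dim on average, 4 were higher and 12 lower in severe cows, and 0 passed limma. CLDN10 and MAL2, a tight junction claudin and a protein of apical transport, were the 2 at an unadjusted p under 0.05, with severe minus mild log2 differences of -0.997 and -0.77 (limma adjusted p = 0.359 and 0.386). These 2 of 16 stand beside 15.9% of all genes at that level in either direction and 7.46% lower. The level averaged -0.10 ± 0.49 in the 6 severe and 0.12 ± 0.29 in the 5 mild cows (SD). It was lowest in severe 5, at -0.98, the cow with the lowest KRT7, KRT18 and KRT19, and highest in mild 2, at 0.49. The summed log2 signal of the 16 markers ran from 108 to 130 in severe and from 119 to 132 in mild cows.

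KRT18 was correlated with this level over the 11 cows (r = 0.74, permutation p = 0.00677, rho = 0.82, permutation p = 0.00305), and r was 0.69 without mild 2 and severe 5 (permutation p = 0.0393). For KRT19 r was 0.71 (permutation p = 0.00964, rho = 0.70) and for KRT7 0.69 (permutation p = 0.0172, rho = 0.70). Those of KRT19 and KRT7 rested on mild 2 and severe 5, since they were 0.51 (permutation p = 0.161) and 0.41 (permutation p = 0.270) without these cows. KRT5 had an r of 0.38 (permutation p = 0.249), or 0.67 without the same cows (permutation p = 0.05003). With the stromal level, from 11 markers of connective tissue cells, r lay between 0.05 for KRT7 and 0.40 for KRT5. These 8 relations were chosen after the data were seen, and adjusted over them p was 0.0386 for KRT18 and KRT19, 0.0458 for KRT7 and at least 0.398 for the rest. With stroma, r depended on mild 1 and mild 2: without them it was 0.72 for KRT7 (permutation p = 0.0262), 0.79 for KRT18 (permutation p = 0.0113), 0.79 for KRT19 (permutation p = 0.0125) and 0.64 for KRT5 (permutation p = 0.0675). Within the 6 severe cows the stromal r was 0.82 for KRT7 (exact permutation p = 0.0486), 0.81 for KRT18 (exact permutation p = 0.0514), 0.89 for KRT19 (exact permutation p = 0.0264) and 0.80 for KRT5 (exact permutation p = 0.0569), unadjusted. The epithelial r in those cows was 0.71, 0.77, 0.69 and 0.65, with exact permutation p of 0.110, 0.0667, 0.110 and 0.171. The difference between these relations was not tested.

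**Figure D3:**
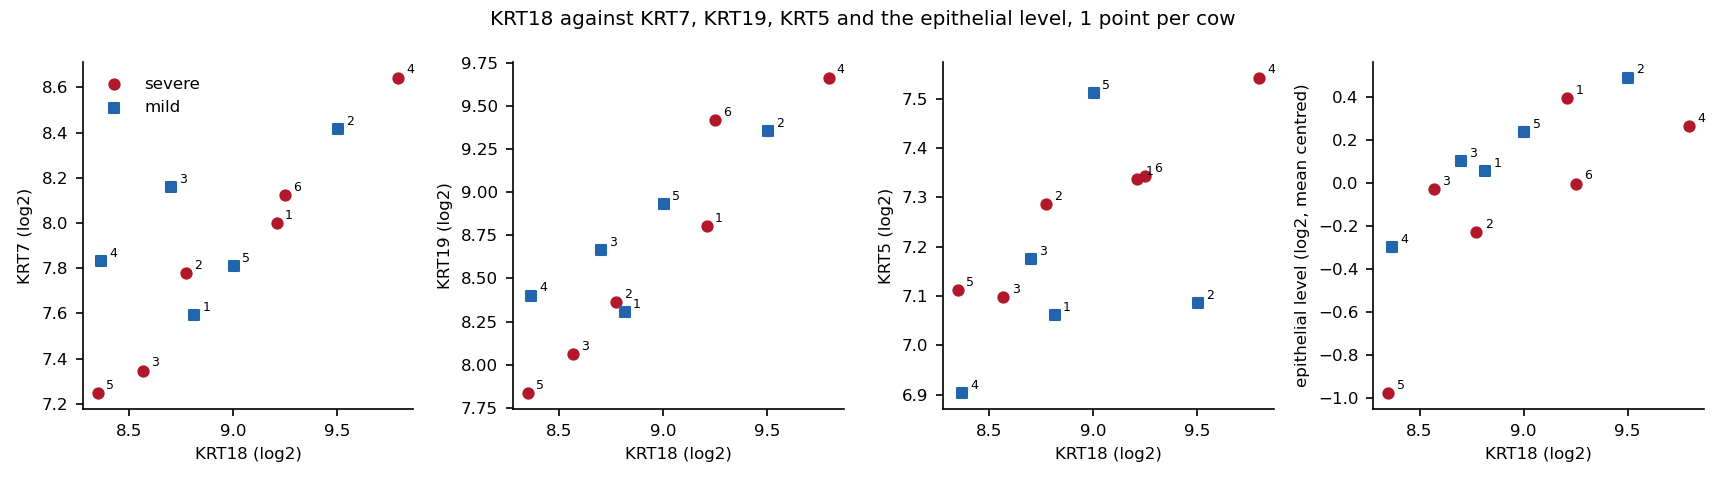
KRT18 signal (x axis, log2) against KRT7, KRT19, KRT5 and the centred level of 16 epithelial markers without keratins, 1 numbered point per cow, severe as circles and mild as squares. KRT7 and KRT19 climb with KRT18 over the 11 cows, with r of 0.84 and 0.92. In the KRT5 panel mild 1, mild 2 and mild 4 lie below the line that the severe cows form. There mild 5 lies above that line and mild 3 near it.

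Markers of other cells are given beside the keratins, and their part in the keratin values was not tested. The neutrophil level, from 7 measured markers of which 2 were dim on average, was 0.96 ± 0.95 in the 6 severe and -1.15 ± 0.49 in the 5 mild cows (SD). Its summed log2 signal ran from 48.3 to 65.3 in severe and from 36.4 to 44.8 in mild cows, without overlap. The levels of macrophages (8 markers), T and NK cells (12 markers, 2 dim) and B and plasma cells (5 markers, 2 dim) were higher in severe cows by 0.85, 0.68 and 1.68 log2 units. The groups overlapped in each of these levels. Their summed signals began at 66.1, 72.8 and 33.6 in severe cows and reached 74.3, 76.0 and 42.4 in mild cows. In these lists and that of neutrophils 0 markers passed limma. Stroma differed by 0.09, endothelium by 0.02 and smooth muscle by -0.21, and all 7 measured trophoblast genes were dim. The stromal level averaged genes of both directions, 6 of 11 being higher in severe cows. At an unadjusted limma p under 0.05, 2 stromal markers were higher and 1 lower, beside 8.45% and 7.46% of all genes. None of them passed limma after adjustment. With the epithelial level as a covariate the log2 difference was 0.32 for KRT18, 0.19 for KRT19 and 0.05 for KRT7, and with the neutrophil level it was 0.10, -0.30 and -0.33. Because the neutrophil level did not overlap between the groups, the fit with it can hardly separate that level from the regime. In both fits 0 members passed limma, the smallest adjusted p among these 6 values being 0.488.

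Genes whose signals ran most like the mean of the 4 simple keratins over the 11 cows were ranked among 9148 others, as a description without a test. SLC35B2, which carries the sulfate donor into the Golgi, came first with an r of 0.91, followed by MPI, the mannose phosphate isomerase, at 0.89. TSHB and HSD3B1, at 0.88 and 0.84, were dim on average, with means of 4.20 and 3.84, and no expression is read from them. SMPD2, a neutral sphingomyelinase, and SERINC2, of a family of membrane proteins, both had an r of 0.84. None of these 6 differed by more than 0.11 log2 units between the regimes.

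Most like the mean of the 3 stratified keratins were NNAT, neuronatin, at an r of 0.95, and GPNMB, a transmembrane glycoprotein of macrophages and other cells, at 0.94. SLC35F5, CCDC93, RAB15 and ASAP1 followed with r between 0.87 and 0.88. With KRT5 alone, r was 0.91 for NNAT, 0.89 for GPNMB and 0.90 for ASAP1. KRT14 and KRT17, which enter the mean of the 3, were dim on average. KRT17 weighs most in that mean, since its SD within groups was 0.42, against 0.19 for KRT5 and 0.18 for KRT14.

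Other keratins were mostly dim. Of 18 keratin genes with a named probe set, 6 were not dim on average: KRT7, KRT18, KRT19, KRT5, KRT10 and KRT23. KRT10, a type I chain of differentiating skin cells, was 6.63 ± 0.37 in the 6 severe and 6.99 ± 0.49 in the 5 mild cows (SD), which differed by -0.37 ± 0.23 (SE) on the log2 scale, with an adjusted p of 0.527 from limma. Mild 2 had the highest KRT10 signal, 7.75, and severe 4 the lowest, 6.20, both cows with high KRT18. Without mild 2 the difference was -0.18, and without mild 2 and severe 5 it was -0.15. KRT23, a type I chain of simple epithelia, had means of 5.71 ± 0.14 in severe and 5.57 ± 0.07 in mild cows (SD), with the mild mean exceeded by 5 of 6 severe cows (log2 difference 0.15 ± 0.08 (SE), limma adjusted p = 0.450). Its other probe set, dim in all cows, differed by 0.17. KRT20, a keratin of gut lining, was dim in all cows at an average of 3.18, with a log2 difference of 0.02. KRT3, a type II chain of the cornea, was dim in all cows as well, and its 4 probe sets differed by 0.16, 0.09, 0.01 and -0.10. The remaining 7 keratins outside the 7 members, KRT4, KRT6B, KRT15, KRT25, KRT76, KRT78 and KRT79, were dim in all cows. Over the 9 stratified and hair keratins beyond the members 4 were higher and 5 lower in severe cows, with a median of -0.01 and 0 past limma.

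Among genes that anchor keratin filaments at cell junctions 0 passed limma. Of 19 listed desmosome and linker genes 10 were measured. All 10, 4 of them dim on average, had a difference below 0, while of all 9155 genes 4475 were higher in severe cows. The difference of DSC3, a desmosomal cadherin, was -2.72e-05, and the median of the 10 was -0.20. The median rested on few cows, being -0.083 without severe 5, -0.092 without mild 2 and -0.046 without both. At an unadjusted p under 0.05 there was 1 of the 10, beside 7.46% of all genes lower at that level, and there were 3 without severe 1 and 2 without severe 3, mild 4 or mild 5. JUP, plakoglobin, which couples desmosomal cadherins to the filaments, was at 8.82, 8.69, 9.02, 8.74, 8.48 and 8.72 in severe cows 1 to 6, against 9.13, 9.13, 9.17, 8.90 and 9.05 in mild cows. Severe 3 alone lay above the lowest mild cow, mild 4. The log2 difference was -0.33 ± 0.09 (SE, limma adjusted p = 0.291), with an unadjusted exact permutation p of 0.00866. Since JUP was named for the smallest p of its list in these same cows, that p adds no separate support. PKP2, a plakophilin of desmosomal plaques, differed by -0.70 ± 0.32 (SE, limma adjusted p = 0.391), with 4 severe cows dim, by -0.41 without mild 2 and by -0.26 without mild 2 and severe 5. Its other probe set, dim in all cows, was at -0.45 ± 0.18. The epithelial level given above averaged lower in severe cows too, at -0.21 for severe minus mild. Severe 5, at -0.98, alone lay below the lowest mild cow, mild 4, at -0.30. The other severe cows ran from -0.23 to 0.39, within the range of the mild cows. The part of the epithelial level in the desmosome values was not tested.

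Of 9 listed hemidesmosome and basement membrane genes 4 were measured, and all 4 had a difference above 0. At an unadjusted p under 0.05 there were 0 (1 without severe 3, severe 5 or mild 5), and 0 passed limma. CD151, a tetraspanin that binds laminin receptors, was at 0.02 ± 0.13 (SE). LAMB3, a laminin chain of the basement membrane under basal epithelial cells, was 7.21 ± 0.79 in the 6 severe and 6.51 ± 0.57 in the 5 mild cows (SD) (log2 difference 0.70 ± 0.38 (SE), limma adjusted p = 0.460). The signal of LAMB3 was highest in severe 4, severe 6 and severe 1 and lowest, among severe cows, in severe 5 and severe 3. COL17A1, a collagen of hemidesmosomes, was dim in all cows and differed by 0.12, its other probe set being at -0.10.

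In the list of squamous and cornified envelope genes 6 of 8 measured members were higher in severe cows and 2 lower, with a median of 0.23, or 0.12 without severe 4, and 0 past limma. At an unadjusted p under 0.05 there were 3, all higher, beside 8.45% of all genes higher at that level. S100A2, a calcium-binding protein of basal epithelial cells, was at 11.70, 11.03, 10.04, 12.22, 10.44 and 11.83 in severe cows 1 to 6, against 9.61, 9.33, 10.48, 10.22 and 10.36 in mild cows. Severe 3 and severe 5 were the severe cows that overlapped the mild ones, and among the 6 severe cows they also had the lowest KRT7, KRT18 and KRT19. The log2 difference was 1.21 ± 0.39 (SE, limma adjusted p = 0.307). S100A14, an epithelial relative, averaged 8.05 ± 0.63 in severe and 7.33 ± 0.26 in mild cows (SD), a difference of 0.72 ± 0.27 (SE, limma adjusted p = 0.335), and is named because it was 1 of those 3. The third was TGM3, the epidermal transglutaminase, whose groups did not overlap, beside 1.19% of all genes. TGM3 was 7.49 ± 1.00 in severe and 4.46 ± 0.77 in mild cows (SD), and all 5 mild cows were dim (limma adjusted p = 0.215, or 0.0466 without severe 1), so the size of its difference is not exact. Its order among severe cows was unlike that of S100A2 and the keratins. TGM3 was highest in severe 5, at 8.75, and lowest in severe 1, at 6.22. TGM1, which crosslinks the cornified envelope, and KLK10, a serine protease, were the 2 lower members, dim on average, and differed by -0.20 and -0.32.

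**Figure D4:**
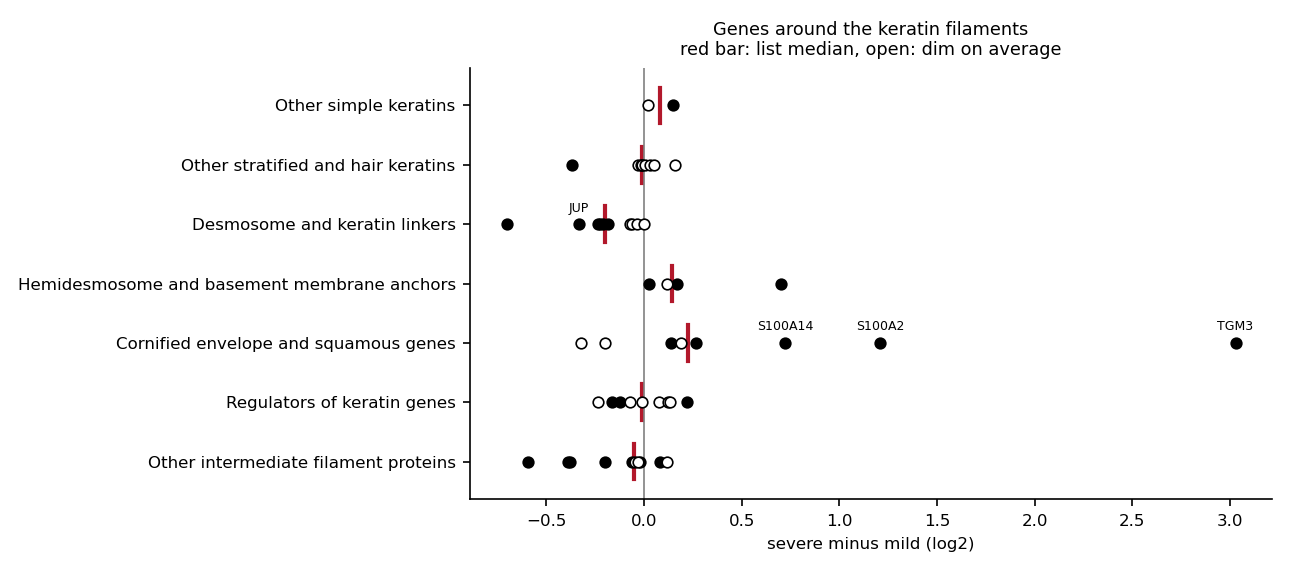
Severe minus mild log2 difference of each measured gene of the 7 lists around the keratin filaments, with list medians as red bars and genes dim on average as open circles. Genes at an unadjusted p under 0.05 are named, none passed limma, and the desmosome genes all lie below 0 while squamous genes reach 3.03 for TGM3.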

How the data were processed

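The deposited table held log2 values of 24128 probe sets. The authors made them with RMA, according to the submitters' processing notes, and the log2 unit rests on the range of the values. Its software is not given in the sources used here. Since RMA equalises the arrays, a shift shared by every transcript is lost, and the number of arrays limits the precision. The 112 controls were left out. Of 24016 probe sets 13292 had 1 gene symbol in the platform annotation, 86 several, and 10638 were not listed and stay unnamed. Symbols were checked by Entrez number against RefSeq, which matched 13263 and renamed 0.

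Differences are severe minus mild, from limma 3.58.1 under R 4.3.3 (two-sided eBayes tests after lmFit, Benjamini-Hochberg over all probe sets), and the same procedure was tested on simulated data. Single values and pair balances used exact permutation, and correlations used 100000 permutations, or all 720 orders within severe cows. Python 3.11.15 and numpy 2.4.6 were used. Members and lists were chosen with earlier results of these data known. Besides members, the text names the 2 genes of each list with the smallest p and the 6 most correlated with each keratin mean. JUP, PKP2, S100A2 and TGM3 came from that rule. S100A14, TGM1, KLK10, CLDN10, MAL2, DSC3 and CD151 were named after their values were seen, and EPCAM was named outside the rule. Replicate numbers only name cows; 1 cow gave 1 array, and neither a batch nor the block used to allocate each cow is given here. Alternatives were filters, normalizations, eBayes settings, array weights, covariates, other probe sets and cows left out. Protein and promoter sequences were not used here.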

Additional observations from a re-analysis of the deposited data

Results flagged for a closer look

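Among 70 sets of severe or mild values searched for a cow far from the rest of its group, 2 held one, and chance alone flags about 1 in 20 sets. The desmosomal PKP2 signal of mild 2, 7.37, lay far above the other mild cows, which ran from 5.81 to 6.13. The B and plasma cell level of mild 3, 0.74, lay far above the other mild cows, which ran from -1.58 to -1.08. None of the 7 keratins had such a cow.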

How the results depend on the processing

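No member passed limma under any alternative run, and small differences turned sign. KRT7 was at 0.053 with the epithelial covariate and 0.13 without mild 2 and severe 5. KRT19 was at 0.10 with array weights, 0.19 with the epithelial covariate and 0.29 without mild 2 and severe 5. KRT5 was at -0.28 in its other probe set, dim in all cows, and -0.072 over both, which put KRT5 minus KRT14 at -0.051. KRT14 was at 0.0055 with array weights, 0.0063 without mild 2 and severe 5, 0.0013 with the epithelial and 0.0080 with the neutrophil covariate. The unlisted probe set was at -0.10 with the neutrophil covariate. The correlation of KRT7 and KRT18 was 0.76 without mild 2 and severe 5, and the median of the regulators of keratin genes 0.19. Probe sets at an unadjusted p under 0.05 numbered 1262 with the neutrophil covariate, whose level did not overlap between the groups, against 3085. With each cow left out in turn, differences ran from -0.26 to 0.017 for KRT7, -0.048 to 0.27 for KRT18, -0.23 to 0.13 for KRT19, -0.069 to 0.055 for KRT14, -0.014 to 0.32 for KRT17 and -0.045 to 0.058 for KRT20. Those of KRT8 minus KRT18 ran from -0.20 to 0.13 and of KRT7 minus KRT19 from -0.15 to 0.025, and r of KRT7 and KRT18 from 0.75 to 0.90. Limma calls numbered 0 to 16 over all probe sets (16 without severe 1, 2 without severe 3), 0 to 1 in the lists (TGM3) and 0 among members, of which 0 to 1 had an unadjusted p under 0.05. KRT8, KRT14 and KRT17 were limited by dim signals. The cause of these shifts was not tested. No paired analysis was possible because the labels number no replicates shared between the groups.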

Other observations

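Intermediate filament proteins other than keratins gave 0 limma calls among 10 measured genes, 8 of which were lower and 2 higher in severe cows, with a median log2 difference of -0.05. VIM, vimentin, the filament of stromal cells and leukocytes, averaged 12.86 in severe and 12.78 in mild cows. DES, desmin of muscle, averaged 11.42 and 11.81, and LMNA, the nuclear lamin A, 8.87 and 9.07. These 3 were named as the known filaments of other compartments, after their values were seen. GFAP, best known from glia, was 5.74 ± 0.51 in the 6 severe and 6.33 ± 0.88 in the 5 mild cows (SD), which differed by -0.59 ± 0.37 (SE) on the log2 scale, with an adjusted p of 0.525 from limma. The GFAP difference was -0.27 without mild 2, -0.87 without mild 5 and -0.20 without mild 2 and severe 5. Its other probe set, dim in all cows, was at -0.48. NEFM, a neurofilament, was dim in all cows and differed by 0.12.

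Of 9 measured regulators of keratin genes 6 were dim on average, 4 were higher and 5 lower in severe cows, with a median of -0.01, and 0 passed limma. ELF3, an epithelial ETS factor that the epithelial marker list also holds, was 7.91 ± 0.42 in the 6 severe and 7.69 ± 0.25 in the 5 mild cows (SD), which differed by 0.22 ± 0.20 (SE) on the log2 scale, with an adjusted p of 0.661 from limma. SOX2, a factor of basal and stem cells, was dim in all cows and differed by 0.08.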
